A study of Mus musculus with 13 samples.

Results

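CpG-dense 1 kb tiles that were unmethylated in mouse embryonic fibroblasts (MEF) were followed into reprogrammed cells. A member tile is an autosomal 1 kb tile with at least 40 CpG positions read in any of the 13 libraries, at least 20 reads in each MEF library, and a pooled MEF methylation level under 10%. The level is the percent of reads at the CpGs of a tile that are methylated. Of 539151 autosomal tiles with a CpG read, 11143 held 40 or more CpG positions, 9843 of these also had the MEF reads, and 7696 (78.2%) were members. The other 2147 lay at 10% or more in MEF. Of the members, 6148 were read 20 or more times in all 13 libraries, and levels over tiles are given for those. The members were chosen by their MEF levels, so every value of MEF against another group is a description.

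The assay was reduced representation bisulfite sequencing (RRBS), in which restriction fragments rich in CpG are read for methylated cytosines. The groups, named by their labels, were 2 libraries of female induced pluripotent stem cells (iPSC) with 2 active X chromosomes (XaXa 7 and 8), 4 of female iPSC with a single X (XO 3, 5, 6 and 9), 3 of male iPSC (1, 2 and 4) and 2 of male MEF (4 and 5). Male reprogramming intermediates, sorted by an antigen that pluripotent mouse cells carry on their surface (SSEA1), gave 1 library without the antigen (SSEA1 negative 2) and 1 with it (SSEA1 positive 2). The iPSC were feeder-depleted. The labels give no strain, age, passage, reprogramming method or clone, and do not say which libraries came from separate cultures. The p-values therefore measure only the spread between these libraries, which may be technical.

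Reads summed over CpGs ranged from 4784488 in XO 9 to 143148634 in XaXa 8, and the median member tile held 51 reads in XO 9 and 2533 in XaXa 8. The depth of the X chromosome relative to autosomes, set to 1 in male iPSC, was 1.45 and 1.38 in the XaXa libraries and 1.02 in XO 6. It was 1.34, 1.21 and 1.38 in the libraries labelled XO 3, 5 and 9, and 1.28 in the library labelled male MEF 5 against 0.897 in MEF 4. Reads on the Y chromosome were 0.0219% of the autosomal reads in MEF 5, against 0.0913% in MEF 4, 0.0793% to 0.109% in the other libraries labelled male and 0.0397% to 0.0485% in the female iPSC. These 3 XO libraries (X reads) and MEF 5 (X and Y reads) go against their labels. The main level differences, counts of calls and named calls of the XO group are also given without XO 3, 5 and 9, which leaves XO 6 alone. A test with XO 6 alone assumes that it varies like the libraries of the other iPSC groups.

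Stretches dense in CpG are called CpG islands. In mammals they lie at the promoters of most housekeeping genes and many developmental regulators, and they are kept free of DNA methylation in nearly all tissues while the rest of the genome is methylated. Methylation of an island promoter usually goes with silence of its gene, as on the inactive X and at imprinted genes. Mouse pluripotent cells with 2 active X chromosomes are known for low methylation of the genome as a whole.

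Promoters show where the tested CpGs of a tile sit. RefSeq promoter sequences (GRCm38.p6) were placed on the deposited mm9 positions by matching the spacing of their CpGs, which put 11553 of 31396 autosomal promoters at 1 position. The 4 stretches printed here are the 250 bases before the start of a gene in a tile that fell in XaXa iPSC, chosen because at least 4 CpGs of the test lie inside them. H2-Q4 met the same rule and is not printed, since it has near-identical copies in the genome. Each is on the + strand, given 5′ to 3′, with the CpGs of the test in capitals; positions are mm9.
Atf7ip, chr6:136467122-136467371: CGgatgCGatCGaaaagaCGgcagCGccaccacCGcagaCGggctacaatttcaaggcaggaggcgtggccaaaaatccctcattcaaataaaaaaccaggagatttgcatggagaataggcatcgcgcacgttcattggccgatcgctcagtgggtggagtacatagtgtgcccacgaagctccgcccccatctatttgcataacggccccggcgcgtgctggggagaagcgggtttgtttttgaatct
1810009A15Rik, chr19:8963123-8963372: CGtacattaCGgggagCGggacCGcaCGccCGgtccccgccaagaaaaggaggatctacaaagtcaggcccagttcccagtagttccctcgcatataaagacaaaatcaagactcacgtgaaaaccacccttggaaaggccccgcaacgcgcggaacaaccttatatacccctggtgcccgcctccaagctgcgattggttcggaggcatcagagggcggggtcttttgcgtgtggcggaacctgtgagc
Bdnf, chr2:109532934-109533183: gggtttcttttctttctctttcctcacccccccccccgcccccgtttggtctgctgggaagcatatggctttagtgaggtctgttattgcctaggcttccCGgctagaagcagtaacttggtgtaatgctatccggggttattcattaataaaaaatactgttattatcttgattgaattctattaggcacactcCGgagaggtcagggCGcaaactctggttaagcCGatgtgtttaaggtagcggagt
Zmym2, chr14:57505190-57505439: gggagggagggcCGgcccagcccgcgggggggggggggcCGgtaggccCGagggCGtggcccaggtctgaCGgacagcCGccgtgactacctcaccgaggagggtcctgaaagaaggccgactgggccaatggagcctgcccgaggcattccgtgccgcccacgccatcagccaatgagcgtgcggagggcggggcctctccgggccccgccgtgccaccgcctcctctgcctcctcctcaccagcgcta
Atf7ip encodes a partner of the histone methyltransferase SETDB1, Bdnf a neurotrophin and Zmym2 a zinc finger protein of the MYM type. The capitals stand at 1 edge of the Atf7ip, 1810009A15Rik and Zmym2 stretches, and the other CpGs of these promoters did not have 5 reads in each of the 9 iPSC libraries.

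At the 7 Atf7ip CpGs the level was 0% and 2.12% in MEF 4 and 5, and 18.3%, 42.9% and 24.6% in male iPSC 1, 2 and 4. It was 24.8%, 28.1%, 7.50% and 5.71% in XO 3, 5, 6 and 9, and 4.38% and 9.28% in XaXa 7 and 8. All male iPSC libraries lay above both XaXa libraries, and the XO libraries spread over both ranges. At each of the 7 CpGs the male mean lay above the XaXa mean, though single libraries overlapped at some of them; group means per CpG were 16.0% to 38.5% in male iPSC and 3.73% to 11.7% in XaXa iPSC.

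At the 6 CpGs before 1810009A15Rik the level was 40% and 21.5% in XaXa 7 and 8, 47.9%, 26.0%, 39.5% and 51.1% in XO 3, 5, 6 and 9, and 34.7%, 37.3% and 45.0% in male iPSC 1, 2 and 4. It was 0% in both MEF libraries, over 7 and 24 reads, and 19 of those in MEF 5 lay at the CpG 220 bases before the start. The CpGs 241, 234, 228 and 224 bases before the start had 0 reads in MEF 4 and 1 read each in MEF 5, so MEF says little of them. The CpG 241 bases before the start was at 0% in every iPSC library, while the other 5 had group means between 20.8% and 61.3%. In the SSEA1 positive library the stretch stood at 35.7% of 28 reads (95% Wilson interval 20.7% to 54.2%). Of these, 16 lay at the CpG 220 bases before the start, at 12.5%. Intervals here cover counting error only and are too narrow, since 1 read can add to several CpGs of a tile.

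At the 4 CpGs before Bdnf the level was 23.5%, 13.4%, 13.1% and 6.67% in XO 3, 5, 6 and 9, against 7.69% and 3.93% in XaXa and 6.42%, 6.38% and 6.92% in male iPSC 1, 2 and 4. Both MEF and both SSEA1 libraries stood at 0%. XO 9 lay among the other groups, and the other 3 XO libraries lay above them. The Zmym2 stretch rested on a single CpG, 238 bases before the start, with means of 48.4% in XO, 41.1% in male and 28.7% in XaXa iPSC. That CpG had no read in MEF or the SSEA1 libraries, and the other 5 capitals had group means of at most 1.39% in iPSC, so the tile's place among MEF-unmethylated tiles says nothing of it.

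Over the 6148 tiles the mean level was low in every library. It was 1.26% and 0.855% in XaXa 7 and 8 (mean 1.06% ± 0.289, SD, n = 2), and 2.11%, 1.72%, 1.42% and 1.07% in XO 3, 5, 6 and 9 (1.58% ± 0.442, SD, n = 4). Male iPSC 1, 2 and 4 stood at 1.21%, 1.32% and 1.23% (1.25% ± 0.0583, SD, n = 3). MEF 4 and 5 stood at 1.45% and 2.28%, and the SSEA1 negative and positive libraries at 1.53% and 1.47%. XO 3, 5 and 6 lay above the male iPSC libraries and XO 9, the shallowest, lay below them. XaXa 8 lay below all other libraries, and XaXa 7 lay within the range of the male libraries.

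The level of mitochondrial CpGs was 0.192% to 0.345% in iPSC, 0.833% and 1.35% in MEF 4 and 5, and 0.436% (SSEA1 negative) and 0.343% (SSEA1 positive) in the sorted cells. Its part in the member levels was not tested. The mean for XaXa was 0.521 points under XO and 0.190 points under male iPSC, and XO was 0.331 points over male iPSC. Leaving out XO 3 brought the last difference to 0.155 points, leaving out XO 9 to 0.501, and leaving out XO 3, 5 and 9 together to 0.173. Without XaXa 8 the difference between XaXa and male iPSC was 0.0142 points, and without XaXa 7 it was -0.395.

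**Figure D1:**
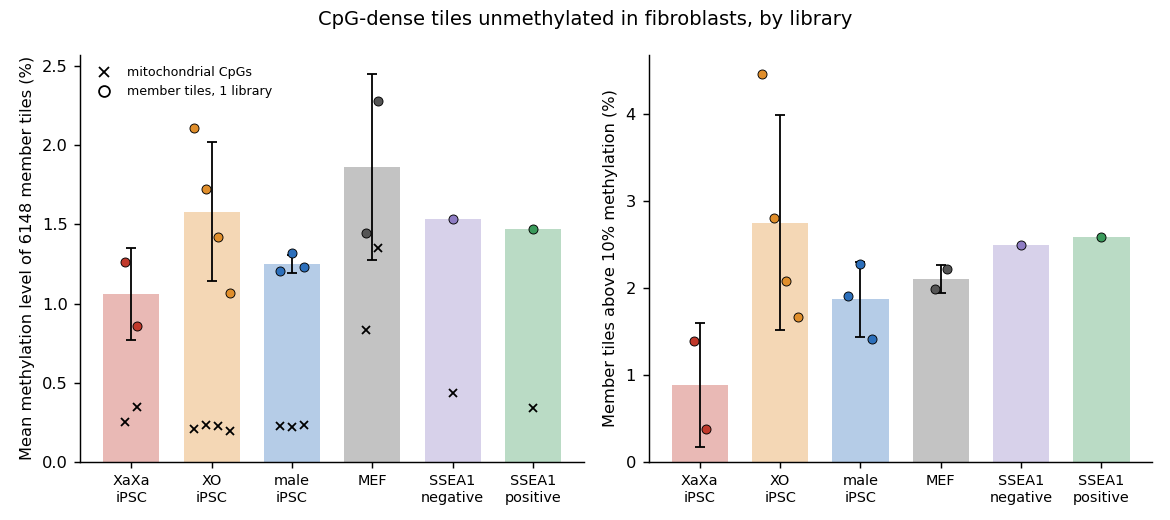
Mean methylation level of the 6148 member tiles (left, percent, with the level of mitochondrial CpGs as crosses) and percent of member tiles above 10% (right), by group; bars are group means, error bars SD, points single libraries. The XO points spread from 1.07% to 2.11%, around the narrow male range of 1.21% to 1.32%.

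The differences of means lay in the upper tail of the tiles. The median tile stood at 0.524% in XaXa, 0.487% in XO and 0.339% in male iPSC (means over libraries), an order opposite to that of the means for XaXa. Shallow libraries hold more tiles at exactly 0% (71.6% of tiles in XO 9, 0.163% in XaXa 8), and the median tile of XO 9 and of male iPSC 2 was at 0%. Tiles above 10% made up 1.38% and 0.374% of the members in XaXa 7 and 8, 4.46%, 2.80%, 2.08% and 1.66% in XO 3, 5, 6 and 9, and 1.90%, 2.28% and 1.42% in male iPSC 1, 2 and 4. The share was 2.49% for SSEA1 negative and 2.59% for SSEA1 positive cells and 1.98% and 2.21% in MEF 4 and 5. Tiles above 20% made up 1.32% in XO 3 and 0.423% to 0.504% in the other XO libraries.

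The gap between XaXa and XO iPSC was wider in tiles with higher levels. In the 4467 tiles under 1% in male iPSC the means were 0.546% in XaXa and 0.637% in XO, a ratio of 0.856. In the 106 tiles at 10% or more in male iPSC they were 8.86% and 16.3%, a ratio of 0.545. With XO 6 alone these ratios were 0.929 and 0.575. Over all 6148 members the ratio was 0.670, against 0.610 over all autosomal tiles read at the same depth and 0.551 over CpG-dense tiles at 10% or more in MEF (0.745, 0.595 and 0.492 with XO 6 alone). The male libraries that sorted these tiles also enter the male mean, which was 16.9% in the last class.

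Members crowded at gene starts. A placed RefSeq start lay in 4091 members (53.2%), against 262 of the 2147 dense tiles methylated in MEF (12.2%), and 1118 further members lay next to a tile with a start. No promoter sequences were at hand for chromosome 18, so its 231 members count as tiles with no placed start. The placed starts belonged to 4669 genes. Most members (5624) stood alone, and 884 pairs, 92 triples and 7 runs of 4 adjacent tiles made up the rest. The runs of 4 covered starts of Ptma, Cdk6, a cell cycle kinase, Cux1 and Tlx3, both homeobox genes, Gse1 and Foxo3, a forkhead factor, and 1 run had no placed start. The Foxo3 run, with 260 CpG positions, stood at 0.460% in XaXa, 0.2% in XO, 0.305% in male iPSC and 2.61% in MEF. The Tlx3 run, with 254, stood at 1.67%, 2.83%, 1.75% and 2.53% in the same order.

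Per 1000 tiles read, members numbered 11.8 on chromosome 14 and 20.4 on chromosome 19, the lowest and highest of the 19 autosomes. The XO mean was above the male mean on all 19 (by 0.196 to 0.559 points), and the XaXa mean was below the XO mean on all 19 (by 0.317 points on chromosome 9 to 0.831 on chromosome 16). With XO 6 alone the first held on 18 of 19, all but chromosome 16, with at most 0.325 points, and the second on all 19 (0.220 to 0.587 points). The chromosomes share their libraries, so they are no separate evidence of either direction.

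Members with more CpGs, and members that hold a start, had lower levels in every group. Tiles with 40 to 49 CpG positions stood at 1.47% in XaXa, 2.26% in XO, 1.74% in male iPSC and 2.14% in MEF. Tiles with 80 or more stood at 0.759%, 0.984%, 0.871% and 1.56%. The difference between XO and male iPSC was 0.518 points in the first class and 0.114 in the second, and 0.253 and 0.00876 points with XO 6 alone. Tiles with a placed start held 0.843% in XaXa, 1.17% in XO and 1.002% in male iPSC, and tiles with no placed start within 10 kb held 1.28%, 2.06% and 1.65%.

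**Figure D2:**
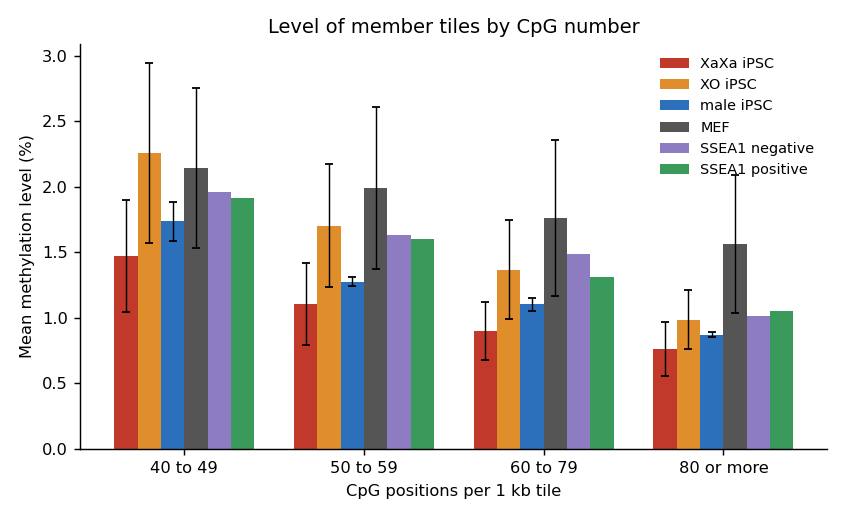
Mean methylation level (percent) of member tiles by the number of CpG positions in the tile, for each group; bars are means over libraries and error bars SD where a group has more than 1 library. In all 6 groups the bars for 80 or more CpG positions are lower than those for 40 to 49, for example 0.984% against 2.26% in XO iPSC.

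CpG by CpG, the low stretch was narrow. Around the 5218 separate start positions placed in member tiles, CpGs in the 200 bases before the start stood at 0.578% in XaXa, 0.789% in XO, 0.666% in male iPSC and 1.07% in MEF. Between 1800 and 2000 bases before the start they stood at 17.7%, 31.2%, 29.2% and 43.9%. Between 1800 and 2000 bases after it they stood at 16.1%, 28.2%, 24.8% and 38.3%. The SSEA1 libraries followed MEF on this flank, with 45.7% and 43.9% at the far upstream end. All libraries of the XaXa group lay below all other libraries in these 2 outer bins, while at the start XO 9 (0.541%) was lower than both XaXa libraries (0.584% and 0.573%).

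**Figure D3:**
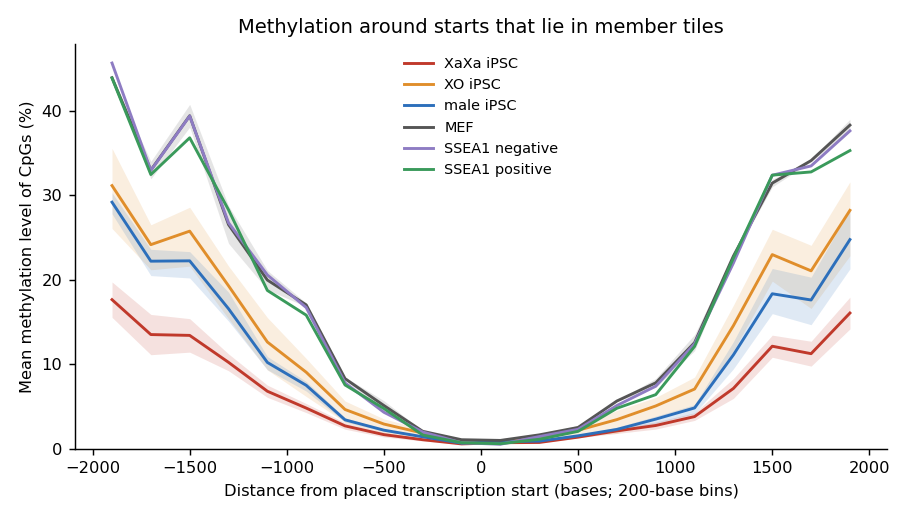
Mean methylation level of CpGs (percent) against distance from the placed transcription start (bases, in 200-base bins) for starts in member tiles; lines are group means and bands the range over libraries. All groups sit at or under 1.07% just before the start, and at the outer edges XaXa iPSC reach 17.7% where MEF reach 43.9%.

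Differences between iPSC groups were tested tile by tile with a quasi-binomial model fitted over all autosomes. A tile entered with at least 3 CpGs that had 5 or more reads in each of the 9 iPSC libraries, which left 29781 tiles, 2981 of them members. A tile was called at an adjusted p (Benjamini-Hochberg) under 0.05 together with a difference of 5 percentage points or more. The model takes the spread between libraries to shrink with depth, so the deep libraries (XaXa 8, XO 6, male iPSC 4) weigh most. A test that gives every library equal weight (limma on log2 ratios of methylated to unmethylated reads) is given beside the counts, and beside each named tile whose call it did not make.

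XO against male iPSC gave no call among the members in either direction, by either test. Over all 29781 tiles the model called 0.114% higher and 0.0168% lower, and limma called 0 in both directions, so its 0 is not a result about the members. At an unadjusted p under 0.05, 227 members (7.61%) were higher in XO and 28 (0.939%) lower, against backgrounds of 8.9% and 3.32%. The sign of the difference was positive in 1884 of 2981 members (63.2%). That share was not counted over all tiles, so it is not a result about the members. The median difference was 0.151 points in members and 0.144 over all tiles. The share higher was close to its background and the share lower was below it. Most members stand near 0%, which leaves little room for a lower level, and the part of this limit was not tested. Without XO 3, 5 and 9 the model called 1 member higher.

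The smallest p of this comparison belonged to a tile holding the start of Timp2, an inhibitor of matrix metalloproteinases (chromosome 11, 118216001 to 118217000). Like the tile on chromosome 16 given below, it was chosen after its values were seen. Over 5 CpGs the level was 11.1%, 8.06%, 7.39% and 1.79% in XO 3, 5, 6 and 9, and 3.16%, 1.69% and 2.07% in male iPSC 1, 2 and 4. XaXa 7 and 8 stood at 4.51% and 2.86%, and MEF 4 and 5 at 0% and 0.59%. XO 9 lay within the male range. The difference was 4.76 points, with an unadjusted p of 0.00011 and an adjusted p of 0.0535. On chromosome 16 the tile from 85901001 to 85902000 was 6.73 points higher in XO with an adjusted p of 0.0555.

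**Figure D4:**
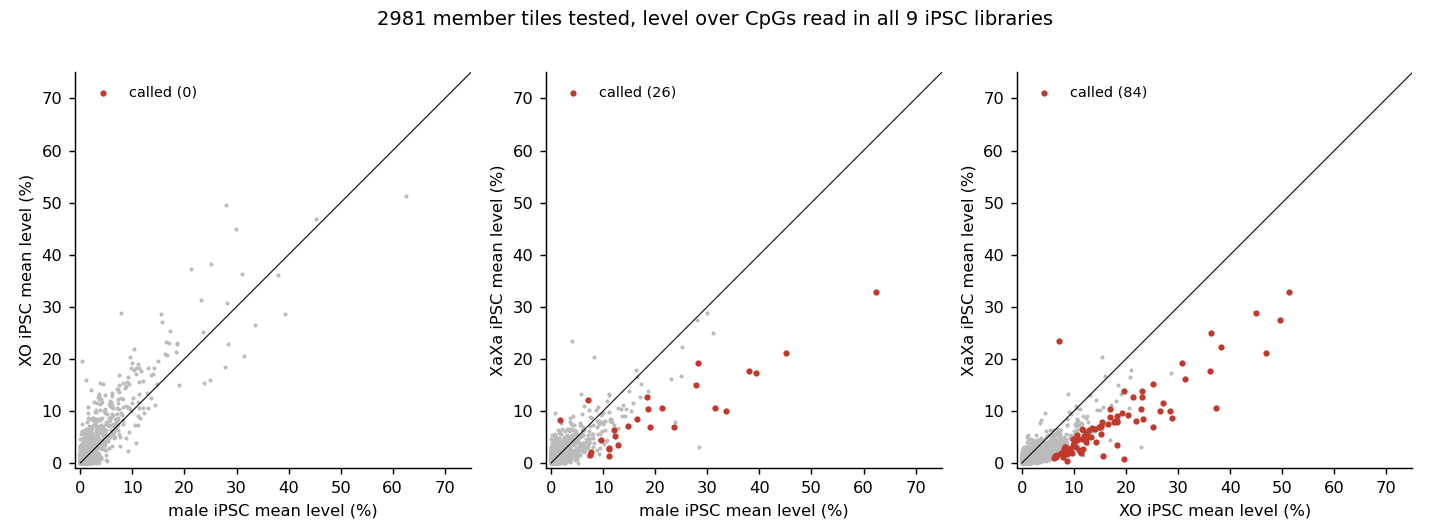
Group mean levels (percent) of the 2981 tested member tiles over the CpGs read in all 9 iPSC libraries, for the 3 comparisons; called tiles are red and the line marks equal levels. No tile is called for XO against male iPSC, 26 are for XaXa against male iPSC and 84 for XaXa against XO iPSC.

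XaXa against male iPSC called 24 members lower and 2 higher, of 2981 tested. The background was 64.7% of all tiles lower and 0.222% higher. In 23 of the 24, which are 0.772% of the members tested, both XaXa libraries lay below all male libraries. Over all tiles 60% were called so with no overlap, which is 92.7% of the tiles called lower. The equal-weight test called 10 members lower, and 14253 of all 29781 tiles. Without XaXa 8 the model called 1 member lower, with the lone XaXa library assumed to vary like the other groups. The differences of the 24 ranged from -29.7 to -5.26 points, with a median of -9.23. A tile under 5% in male iPSC cannot be called lower, and of the 6148 tiles only 189 stood at 5% to 10% and 106 at 10% or more in male iPSC.

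XaXa against XO called 83 members lower and 1 higher, against 71.6% and 0.0302% of all tiles. In 48 of the 83 (57.8%) the libraries of the groups did not overlap, which is 1.61% of the members tested. Over all tiles 59.1% were called with no overlap, which is 82.4% of the tiles called lower. The equal-weight test called 35 members lower, 31 of them among the 83, and 15852 of all 29781 tiles. Without XaXa 8 the model called 12, of which 11 were among the 83, and without XO 3, 5 and 9 it called 71, of which 60 were. The differences ranged from -26.6 to -5.06 points with a median of -8.29. Both comparisons share the XaXa libraries.

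A tile under 5% in XO iPSC cannot be called lower against XO, so the 83 tiles came from members at or above that level. Over their tested CpGs they stood at 17.5% in XO, against 1.27% in the tested members not called. How far the differences given next follow from this limit was not tested. The 83 tiles held 57.1 CpG positions on average against 63.9 in the tested members not called. Their mean pooled MEF level was 4.71% against 1.94%. A placed start lay in 26 of 83 (31.3%), against 53.5% of all tested members. Tiles next to them stood at 12.5% in XO and 6.999% in XaXa, against 5.28% and 3.09% next to the other tested members. The calls rest on few CpGs: the median called tile had 4 CpGs in the test, 47 of 83 stayed at 5 points or more without their strongest CpG, and 15 had a single CpG at 5 points. At the CpGs of the test, 58 of the 78 called tiles with 20 MEF reads there were under 10% in MEF (74.4%), against 95.4% of tested members. So 20 of them were members through other CpGs of the tile.

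The tile with the largest fall against male iPSC lay on chromosome 15 (75672001 to 75673000), with no placed start within the tile or next to it. Over 4 CpGs (75672291 to 75672329) the level was 69.3%, 62.5% and 55.7% in male iPSC 1, 2 and 4, 60.4%, 46.2%, 53.0% and 45.5% in XO 3, 5, 6 and 9, and 45.1% and 20.5% in XaXa 7 and 8. Both MEF and both SSEA1 libraries stood at 0%, over 18 to 54 reads. Over all CpGs of the tile these 4 libraries held at most 0.408% over 166 to 490 reads, and the SSEA1 positive library, at 0% of 166 reads, allows up to 1.81% by counting error. Over all CpGs the iPSC groups overlapped, with XaXa 7 and 8 at 26.5% and 7.64% and male iPSC 1, 2 and 4 at 32.9%, 26.6% and 15.8%. XO 3, 5, 6 and 9 stood at 30.3%, 16.9%, 22.0% and 31.7%. Over the 4 tested CpGs XaXa lay 29.7 points below male iPSC (adjusted p 0.000445) and 18.5 points below XO (adjusted p 0.0003). XaXa 7 lay there just under the lowest XO library. Without XaXa 8 both calls were lost, and limma did not make the call against XO (adjusted p 0.0879). The call against male iPSC was also lost with CpGs of 1 read and with the CpGs of the 8 libraries other than XO 9.

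On chromosome 17 a tile (12700001 to 12701000, no placed start near) was called in both comparisons under every alternative in which it could be tested. Over 5 CpGs it stood at 19.05% and 16.4% in XaXa 7 and 8, 40.9%, 39.6%, 33.6% and 30.0% in XO 3, 5, 6 and 9, and 36.7%, 43.0% and 34.2% in male iPSC 1, 2 and 4. MEF 4 and 5 stood at 0% and 14.5%, and the SSEA1 negative and positive libraries at 19.7% and 14.7%. All XaXa values lay below all XO and male values. XaXa lay 20.2 points below male iPSC (adjusted p 5.67e-05) and 18.3 below XO (adjusted p 2.29e-05).

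Among tiles with a named start, that of Atf7ip fell by 20.9 points against male iPSC over its 10 tested CpGs (adjusted p 0.0206). Its levels there were 9.12% and 11.9% in XaXa 7 and 8, 21.8%, 49.4% and 23.0% in male iPSC 1, 2 and 4, and 32.0%, 27.9%, 12.8% and 9.62% in XO 3, 5, 6 and 9. The call was lost without XaXa 8, without male iPSC 4 and by limma (adjusted p 0.0546). Car4, a membrane-bound carbonic anhydrase, stood at 16.1% and 18.5% in XaXa, 44.9%, 41.7% and 31.4% in male iPSC 1, 2 and 4, and 46.9%, 31.6%, 18.99% and 17.2% in XO 3, 5, 6 and 9. MEF 4 and 5 stood at 2.63% and 4.17%. Car4 fell by 22.0 points against male iPSC (adjusted p 0.0289), a call lost when XaXa 7, XaXa 8, male iPSC 1 or male iPSC 2 was left out and by limma (adjusted p 0.0535).

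Ppp1r14b, an inhibitor of protein phosphatase 1, had the steadiest XaXa values over tested CpGs among the called tiles named here. Over 5 CpGs it stood at 6.81% and 6.87% in XaXa 7 and 8, 25.4%, 16.4% and 15.1% in male iPSC 1, 2 and 4, and 17.1%, 14.1%, 10.2% and 18.7% in XO 3, 5, 6 and 9. MEF 4 and 5 stood at 3.16% and 1.54%, and the SSEA1 negative and positive libraries at 11.2% and 0%. Both XaXa libraries lay below all other iPSC. It fell by 12.1 points against male iPSC (adjusted p 0.00115) and the call was lost without XaXa 8.

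Of the printed stretches, the 1810009A15Rik tile, over 14 CpGs, fell by 5.70 points against male iPSC (adjusted p 0.0177) and fell by 8.63 against XO (adjusted p 0.000772). The Bdnf tile, over 6 CpGs, fell by 5.92 points against XO (adjusted p 0.000494), with XO 5.37 points above male iPSC at an adjusted p of 0.178. The Zmym2 tile fell by 5.78 points against male iPSC (adjusted p 0.00516), carried by the single CpG described with its sequence. Limma made none of these 4 calls (adjusted p from 0.059 at Bdnf to 0.354 at 1810009A15Rik against male iPSC), and all 4 were lost without XaXa 8. The Bdnf call was also lost without XO 3 and without XO 3, 5 and 9, where the tile fell by 4.95 points. The Zmym2 call was also lost without male iPSC 1, and that of 1810009A15Rik against male iPSC without male iPSC 2 or 4.

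In some tiles the XO libraries stood above both other iPSC groups. Next to the start of Sox2, a transcription factor of pluripotent cells and one of the classic reprogramming factors, lay a tile with 94 CpG positions whose middle is 584 bases from the start (chromosome 3, 34549001 to 34550000). Over the 3 tested CpGs it stood at 16.3%, 16.4%, 9.83% and 35.9% in XO 3, 5, 6 and 9, at 1.11%, 0% and 0% in male iPSC 1, 2 and 4, and at 1.39% and 0% in XaXa 7 and 8. Over all its CpGs the XO libraries stood at 25.1%, 28.3%, 20.2% and 49.1%, and male and XaXa iPSC at 3.09% or less. All 4 XO libraries lay above the other 5. MEF 4 and 5 stood at 0% (113 reads) and 9.58% (428 reads) over all CpGs, and the SSEA1 negative and positive libraries at 18.1% and 7.81%. XaXa lay 18.9 points below XO (adjusted p 0.000621, lost without XaXa 8), and fell by 9.14 points against XO 6 alone (adjusted p 0.0023). XO lay 19.3 points above male iPSC with an unadjusted p of 0.00106 and an adjusted p of 0.109, which did not pass the test.

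The tile from 5009001 to 5010000 of chromosome 1, with no placed start near, had the same order over 6 CpGs. It stood at 44.0%, 10.5%, 25.4% and 35.0% in XO 3, 5, 6 and 9, 6.34%, 10.5% and 6.65% in male iPSC 1, 2 and 4, and 8.89% and 8.46% in XaXa 7 and 8. XO 5 lay next to male iPSC 2, and the other XO libraries far above. XaXa lay 20.1 points below XO (adjusted p 0.00097, lost without XaXa 8), and XO lay 20.9 points above male iPSC at an adjusted p of 0.0999.

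Next to the start of Cpd, carboxypeptidase D, a tile on chromosome 11 (76659001 to 76660000) had the largest fall against XO. Over 3 CpGs it stood at 14% and 7.27% in XaXa 7 and 8, 46.7%, 36.5%, 32.3% and 33.3% in XO 3, 5, 6 and 9, and 16.0%, 18.5% and 29.5% in male iPSC 1, 2 and 4. All 3 groups were separate, in the order XaXa, male, XO. XaXa lay 26.6 points below XO (adjusted p 0.00011) and 10.7 points below male iPSC (adjusted p 0.00125), and XO lay 15.9 points above male iPSC at an adjusted p of 0.49. The call against male iPSC was lost without XaXa 8, without male iPSC 4, with at most 100 reads per tile and by limma (adjusted p 0.0884). Tiles next to the starts of Tbc1d9b, which has a Rab GTPase-activating domain, and Sox14, a Sox transcription factor, and of Cbfa2t3, a transcriptional corepressor, fell by 18.5, 16.0 and 15.3 points against XO (adjusted p 0.0001, 0.000802 and 3.79e-05). The Tbc1d9b and Sox14 calls were lost without XaXa 8, and limma did not make that of Sox14 (adjusted p 0.0847). The tested CpGs next to Tbc1d9b stood at 17.9% and 16.3% in MEF 4 and 5, those next to Cbfa2t3 at 16% and 1.79%, and those next to Sox14 at 0% and 9.62%. Of the 12 falls named here against XO, 11 were made without XO 3, 5 and 9, all but Bdnf.

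4 other tiles had some of the largest falls. On chromosome 2 (152777001 to 152778000) 3 CpGs stood at 25.4% and 16.9% in XaXa 7 and 8, 37.7%, 51.4% and 46.4% in male iPSC 1, 2 and 4, and 57.1%, 58.8%, 53.5% and 17.9% in XO 3, 5, 6 and 9. XO 9 lay with XaXa there, as it did on chromosome 7 (146272001 to 146273000), where it was at 0%, XaXa 7 and 8 at 11.1% and 8.83%, and the other XO libraries at 27.7% to 49.5%. XaXa lay 24.1 and 23.6 points below male iPSC in these 2 tiles (adjusted p 0.00108 and 0.00286, both lost without XaXa 8). Limma made neither call (adjusted p 0.0906 and 0.236), and the second was also lost without male iPSC 4 and with at most 100 reads per tile. The tested CpGs of the other 2 were methylated in MEF: a tile on chromosome 2 (29050001 to 29051000) held 25.0% and 12.3% in MEF 4 and 5 there, and the Gtpbp8 tile held 46.4% and 29.5%. These fell by 18.3 and 15.5 points against XO, the second with no call by limma (adjusted p 0.0823), and their tested CpGs are no gain over fibroblasts. A further tile, on chromosome 18 (62071001 to 62072000), fell by 12.9 points against male iPSC (adjusted p 0.00498). Over 3 CpGs it stood at 16.7% and 13.2% in XaXa 7 and 8 and 30.2%, 29.0% and 24.4% in male iPSC 1, 2 and 4. XO 3, 5, 6 and 9 stood at 25.4%, 22.3%, 16.7% and 9.09%. That call was lost without XaXa 8, with CpGs of 1 read and by limma (adjusted p 0.103).

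**Figure D5:**
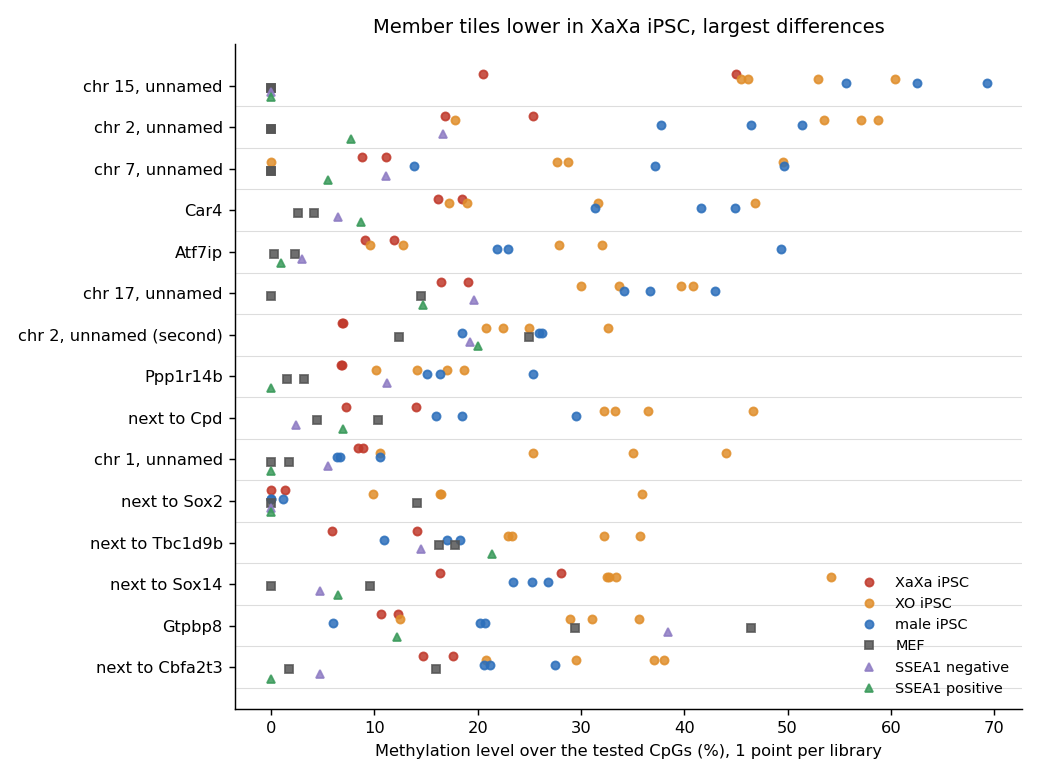
Methylation level (percent) over the tested CpGs of named tiles called lower in XaXa iPSC, 1 point per library, coloured by group. The tile on chromosome 18 is left out. XaXa points sit to the left of the XO or male points, and the tile next to Sox2 has XO points from 9.83% to 35.9% with male and XaXa points at 1.39% or less.

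3 calls went in the other direction. A tile on chromosome 7 (52437001 to 52438000) was 6.53 points higher in XaXa than in male iPSC (adjusted p 0.028), a call lost without XaXa 7, XaXa 8 or male iPSC 4 and by limma (adjusted p 0.0513). A tile on chromosome 11 (84333001 to 84334000) was 5.03 points higher (adjusted p 0.0484), a call lost when any single library but XaXa 7 was left out and by limma (adjusted p 0.261). The tile of E030030I06Rik on chromosome 10, named after its values were seen, was 16.3 points higher in XaXa than in XO (adjusted p 0.025). It stood at 28.2% and 18.6% in XaXa 7 and 8 and at 21.3%, 6.38%, 0.760% and 0% in XO 3, 5, 6 and 9, so the groups overlap at XO 3. That call was lost without XO 6, XaXa 7 or XaXa 8, by limma (adjusted p 0.108) and with at most 100 reads per tile.

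Against MEF, gains of 10 points or more over the pooled MEF level were counted over the 6148 tiles, as a description. The group mean gained that much in 20 tiles (0.325%) in XaXa, 76 (1.24%) in XO and 57 (0.927%) in male iPSC, against 1.73%, 10.2% and 10.3% of all tiles. Every library of the group gained it in 4, 18 and 29 tiles, against 1.17%, 5.65% and 7.02% of all tiles. XO 6 alone gained it in 75 tiles (1.22%, background 10.7%). The SSEA1 negative and positive libraries gained in 49 and 62 tiles (0.797% and 1.01%, background 8.73% and 8.44%). The number of libraries differs between groups, so counts over every library are not comparable. These levels sum all CpGs of a tile, and MEF and iPSC libraries read partly different CpGs. A gain can therefore reflect other CpGs being read, and how far this enters the counts was not tested.

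The highest members in iPSC, among 3186 with 50 or more reads in each iPSC library, held several starts. Over all CpGs of its tile Actg1, cytoplasmic gamma-actin, stood at 8.11% and 8.14% in XaXa 7 and 8, 35.6%, 14.8%, 15.6% and 21.3% in XO 3, 5, 6 and 9, and 34.2%, 16.1% and 25.5% in male iPSC 1, 2 and 4, with 10.4% and 8.94% in MEF 4 and 5. Fads6, a fatty acid desaturase, stood at 30.6% and 8.57% in XaXa and 42.1%, 36.3%, 19.98% and 7.41% in XO 3, 5, 6 and 9. Male iPSC 1, 2 and 4 stood at 14.6%, 17.4% and 15.8%, and MEF 4 and 5 at 6.91% and 6.19%. Over all CpGs both XaXa libraries lay below the other 7 iPSC libraries at Actg1, while at Fads6 XO 9 lay below both XaXa libraries. At the 4 tested CpGs of Fads6, MEF 4 and 5 held 50% and 73.5% over 22 and 34 reads. Group means there were 61.8% in MEF, 49.6% in XO, 28.1% in male and 27.4% in XaXa iPSC. Fads6 was thus a member through its other CpGs.

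3 further starts, chosen after their values were seen, had deep MEF reads near 0%. Pom121, a nuclear pore protein, stood at 0.520% (1346 reads) and 0.511% (4889 reads) in MEF 4 and 5 with 0.313% for SSEA1 negative and 0.201% for SSEA1 positive cells. In iPSC it stood at 13.2% and 6.33% in XaXa 7 and 8, 18.1%, 14.4%, 14.8% and 14.9% in XO 3, 5, 6 and 9, and 18.9%, 20% and 20.8% in male iPSC 1, 2 and 4. No iPSC library overlapped the MEF or SSEA1 values. Tpt1, the translationally controlled tumour protein, stood at 0% and 0.412% in MEF and 5.02% to 28.8% over the iPSC libraries. Galnt7, an enzyme in the making of mucin-type sugar chains, stood at 1.06% and 0% in MEF and 5.95% to 16.8% in iPSC. These tiles were read at CpGs that differ between libraries, and Pom121 and Tpt1 had too few shared CpGs for the test.

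The SSEA1 libraries are 1 of each kind, so their values have no replicate check. Among 5657 members with 50 or more reads in both SSEA1 and both MEF libraries, the highest SSEA1 positive value lay at Hbs1l, a ribosome rescue factor, with 34.1% of 82 reads (95% Wilson interval 24.8% to 44.9%). It stood at 7.14% in the SSEA1 negative library, 13.3% and 0.76% in MEF 4 and 5, and 0% to 20.7% in iPSC. A tile on chromosome 15 (89388001 to 89389000) stood at 55.6% in the SSEA1 negative library (interval 49.04% to 62.0%), 32.3% in the positive one (24.7% to 40.9%), 0% and 14.5% in MEF 4 and 5, and at most 6.25% in iPSC. On chromosome 13 the tile from 56854001 to 56855000 stood at 33.2% in the positive and 11.2% in the negative library. In each of these tiles the SSEA1 positive value was above both MEF and all iPSC values.

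Gene lists were read through starts placed in member tiles, so a gene with no placed start could not be counted. Of 9 DNA methylation enzymes, 8 had a placed start, and for 4 it lay in a member. These were Dnmt3b, a de novo methyltransferase, Tet2, which oxidises methylcytosine, Tdg, a glycosylase that removes the oxidised bases, and Uhrf1, which guides maintenance methylation. Dnmt3b, Tet2 and Uhrf1 stood at 1.59% or less in every iPSC library. Tdg stood at 0% to 7.38% in iPSC, 1.59% and 4.01% in MEF and 0.274% in the SSEA1 positive library, but at 31.8% of 85 reads in the SSEA1 negative library (interval 22.8% to 42.3%). Of 10 housekeeping genes, 6 had a placed start. Those of Gapdh and Eef2 lay in a member, and both genes stayed at 0.760% or less in every iPSC library.

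Of 10 fibroblast and mesenchyme transcription factors, only Twist2, Zeb2 and Snai1 had a placed start, and all 3 starts lay in a member. Snai1, a repressor of epithelial genes, stood at 6.08% and 8.62% in MEF 4 and 5, 6.19% without and 11.8% with the SSEA1 antigen, and at most 2.86% in iPSC. Twist2 stood at 14.7% to 20.4% in XO, 5.55% and 16.2% in XaXa, and 8.12% to 13.6% in male iPSC, over 13 to 1009 reads. Of 10 pluripotency genes, 4 had a placed start. Those of Tfcp2l1 and Klf4 lay in a member, and Klf4, a reprogramming factor, stayed at 0.699% or less in every iPSC library.

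Of 20 developmental regulators bound by Polycomb, 10 had a placed start, and for 4 it lay in a member, all transcription factors. Gata2 stood at 12.9%, 3.57%, 2.57% and 7.14% in XO 3, 5, 6 and 9, at 4.35%, 0% and 0.673% in male iPSC 1, 2 and 4 and at 2.86% and 2.59% in XaXa 7 and 8. Neurog1 stood at 11.3%, 4.46%, 1.19% and 2.04% in the XO libraries and at most 1.38% in the other iPSC. XO 3 was the highest library at both genes. The list mean was 3.53% in XO, 0.7004% in male and 1.40% in XaXa iPSC, with XO libraries from 1.49% to 7.71%. Lhx2 and Foxa2 stood at 4.65% or less in every iPSC library.

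At the threshold of the rule, 75 tiles between 9% and 10% in MEF stood at 3.44% in XaXa, 6.42% in XO and 4.77% in male iPSC. The 70 tiles between 10% and 11% stood at 3.09%, 6.09% and 5.02%, so the tiles on both sides of the limit had similar iPSC levels.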

How the data were processed

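Members and gene lists were chosen with earlier results of these data known. The authors deposited, per the file headers, a count of all reads and a count of methylated reads per CpG, strands merged, and the methylated fraction, which was not used. Per the submitters' processing notes, BSMAP aligned the reads to mm9; its version and the filters were not stated. RRBS reads share their ends, so PCR copies are not told apart. No file header names a gene.

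Tile levels sum all CpGs; library levels average tiles without weights. For the test, methylated and unmethylated counts of CpGs with 5 or more reads in all 9 iPSC libraries were summed per tile (3 or more CpGs). Each tile was given a quasi-binomial model with a mean for each group, its dispersion moderated by limma 3.58.1 (R 4.3.3) and kept at 1 or above, and F tests were adjusted over 29781 tiles by the Benjamini-Hochberg method. The model was run on simulated reads, with the spread it assumes and with a spread that does not shrink with depth. The outcome is not given here, so it is no support for the calls. Named tiles are, per comparison and direction, the 10 called members with the largest difference and no overlap of libraries, the 10 highest in iPSC and the 5 highest in the SSEA1 positive library. RefSeq promoters with at least 6 CpGs in a 300-base window were placed by CpG spacing; decoys on the next chromosome and with reversed spacing gave 13 and 78 matches. Alternatives were read minimums, all CpGs, equal weights, fewer groups and left-out libraries.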

Additional observations from a re-analysis of the deposited data

Results flagged for a closer look

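5 of the 55 values looked at had 1 XO library far from the other 3, by the gap to its neighbour over the range of the group. Chance gives about 1 in 20 groups such a gap, and the values share the same libraries. The share of member tiles above 20% was 1.32% in XO 3, against 0.423% to 0.504% in XO 5, 6 and 9. At the tile next to Sox14, XO 3 stood at 54.2%, and the other XO libraries at 32.5% to 33.4%. At Pom121, XO 3 stood at 18.1% over all CpGs, and the others at 14.4% to 14.9%. At the tile of chromosome 2 that begins at 152777001, XO 9 stood at 17.9% over 28 reads, and the others at 53.5% to 58.8%. At the tile of chromosome 11 that begins at 84333001, XO 9 stood at 5.56% over 18 reads, and the others at 16.1% to 17.7%. The depth of XO 9 and its part in these gaps were not tested.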

How the results depend on the processing

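Called tiles kept their direction under every alternative in which they could be tested. Of the alternatives of single named tiles 438 kept their call, 81 lost it and 0 changed sign. These tallies do not measure how firm the calls are, since most named tiles were chosen for large differences in the same libraries. Leaving out a library of the third group cannot change a difference, and dropping the minimum difference keeps every call. The number of calls moved, and so did the number of members tested, so counts are not comparable between settings that test different tiles. Tested members numbered 2981 in the main fit, 7195 with 1 read per CpG, 513 with 10 reads and 6398 with all CpGs. They numbered 196 with 10 reads in all 13 libraries and 5138 with the CpGs of the 8 libraries other than XO 9. Falls against XO over all tiles numbered 88868 of 116115 with 1 read, 2332 of 3661 with 10 reads and 38700 of 54831 with all CpGs. Main counts were 0 higher and 0 lower for XO against male iPSC, 2 and 24 for XaXa against male iPSC, and 1 and 83 for XaXa against XO. In that order they became, higher and lower: 1 read per CpG, 0 and 1, 5 and 97, 2 and 181; 10 reads, 1 and 0, 0 and 4, 0 and 18; all CpGs of a tile, 2 and 1, 4 and 83, 3 and 133. CpGs with 10 reads in all 13 libraries gave 0 and 0, 0 and 2, 0 and 8. A minimum of 10 points gave 0 and 10 for XaXa against male iPSC and 27 lower against XO; no minimum gave 32 and 78, and 22 and 257. The equal-weight limma test gave 1 and 10, and 0 and 35, with 14253 and 15852 of all 29781 tiles lower. A limit of 100 reads per tile gave 1 and 10, and 0 higher against XO. CpGs of the 8 libraries other than XO 9 gave 4 and 59, and 2 and 188. The first comparison gave 2 higher with MEF in the fit and 1 without XO 3, 5 and 9. The second gave 1 higher with its 2 groups alone and without XO 3, 5 and 9, and the third then gave 3 higher. Chosen after seeing the data, an unadjusted p under 0.001 gave 4 higher, then 0 and 7, then 0 and 45, and members chosen by MEF 4 alone gave 1 higher in the second. Leaving out 1 library gave 0 to 2 higher for XO against male iPSC, 1 to 5 higher and 1 to 35 lower for XaXa against male iPSC, and 0 to 2 higher and 12 to 107 lower against XO; the lowest counts of falls are without XaXa 8. The cause was not tested.

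Levels changed most with the median in place of the mean: 0.524% in XaXa, 0.487% in XO, 0.339% in male iPSC, 0.848% in MEF, 0.437% in SSEA1 negative and 0.439% in SSEA1 positive cells. With it XaXa was above male iPSC by 0.185 points and above XO by 0.0368. With CpGs read 5 times in all 13 libraries XaXa was above male iPSC by 0.00797. Without 1 XaXa library the difference ran from -0.395 to 0.0142. Levels in male iPSC, SSEA1 negative and SSEA1 positive were 1.00042%, 1.28% and 1.20% with 60 CpG positions, 1.02%, 1.07% and 1.06% with MEF under 5%, 1.31%, 1.90% and 1.76% with MEF 4 alone in the rule, 1.10%, 1.35% and 1.30% with 100 reads in each library, and 1.06%, 1.73% and 1.62% with CpGs read in all 13. The XO mean stayed above the male mean in all alternatives (0.149 to 0.590 points). Levels, ratios and gains with XO 6 alone were added after seeing the data. No paired analysis was possible because the groups compared share fewer than 2 replicate numbers. Depth limits tiles in XO 9, where 1 read of a median tile is worth about 2 points.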
